A study of Mus musculus with 8 samples.

Results

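The expression of 38 cell cycle genes, of 32285 genes measured, was examined in immune cells sorted from mouse mammary tumors. The genes were listed by name: 14 act mainly in S phase, 23 in mitosis, and the last is Stmn1. Stmn1 encodes stathmin, a microtubule-destabilizing protein that is abundant in dividing cells. All 38 were found once in each of the 8 matrices, and the rule that lists them uses no measured value. Genes and cell classes were nonetheless chosen with earlier results of these data known. CD45+ cells, CD45 being a surface protein of blood-derived cells, were sorted on day 18 after tumor cells were placed in the mammary fat pad. E0771 is a mouse line used as a model of triple-negative breast cancer. The parental group carried tumors of naive E0771 cells (2 mice, replicates 1 and 3), and the resistant groups carried E0771-Res1 (3 mice) or E0771-Res2 (3 mice) tumors. Each resistant line was grown from E0771 tumor tissue that had come back after paclitaxel with anti-PD-1 antibody, so each is 1 derivative and its 3 mice are replicates of that derivative, not of resistance. The animals were female, no treatment is named for the sampled mice, and the study grew E0771 in C57BL/6 hosts, although the labels name neither strain nor age. The question was how far immune cells were in cycle, in which cell classes, and whether this differed between the 3 tumor lines.

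A dividing cell first copies its DNA in S phase and then separates the copies in mitosis. S-phase genes encode the Mcm helicase that opens the DNA, the sliding clamp Pcna with its partner Pclaf, and the enzymes Tyms, Tk1, Rrm1 and Rrm2 that supply nucleotides. Mitotic genes encode the kinase Cdk1 and its cyclins, the spindle motors and kinases, the kinetochore proteins and the ubiquitin ligase parts that end mitosis. In tumors, T cells divide after they meet antigen, and some macrophages divide in place, whereas mature dendritic cells divide little. S-phase promoters often hold sites for E2F factors, and mitotic promoters often hold a cell cycle homology region (CHR) with CCAAT boxes.

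These promoter letters were present in the listed genes. A RefSeq window of 300 bases (GRCm38.p6; 250 before and 50 from the start on) was matched for 31 of the 38 genes, 12 S-phase and 19 mitotic. The CHR core TTTGAA, on either strand, was in 14 of 19 mitotic and 1 of 12 S-phase windows (Mcm2), against 20.2% of 27025 genes with a window. The E2F sequences TTTCCCGC or TTTGGCGC, on either strand, were in 6 of 12 S-phase windows (Hells, Mcm3, Mcm5, Mcm6, Mcm7 and Pclaf) and 0 of 19 mitotic ones, against 1.8% of genes. CCAAT, on either strand, was in 17 of 19 mitotic and 9 of 12 S-phase windows, against 41.1% of genes. Each motif was searched on its own, whether or not a match overlapped one of another motif, and Birc5, Nusap1, Tk1 and Tyms had none of them in the window. A match describes the letters and was not tested as a site. Below, 160 bases (140 before and 20 from the start on) are printed for the 3 genes whose level passed a test between tumor lines (Ccnb2, Pclaf and Tk1) and for an abundant gene of each role (Top2a and Mcm6), with matches to the motifs in capitals. They lie at chr9:70421535-70421694 (minus strand), chr11:99024170-99024329 (minus strand), chr9:65890183-65890342 (plus strand), chr1:128359686-128359845 (minus strand) and chr11:117825995-117826154 (minus strand).
Ccnb2: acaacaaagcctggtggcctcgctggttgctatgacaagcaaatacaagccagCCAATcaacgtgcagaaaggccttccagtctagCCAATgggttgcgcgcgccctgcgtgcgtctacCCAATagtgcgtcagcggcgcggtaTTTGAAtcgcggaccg
Top2a: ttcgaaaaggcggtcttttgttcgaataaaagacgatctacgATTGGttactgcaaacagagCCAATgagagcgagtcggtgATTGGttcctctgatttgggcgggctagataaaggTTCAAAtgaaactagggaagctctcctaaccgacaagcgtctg
Pclaf: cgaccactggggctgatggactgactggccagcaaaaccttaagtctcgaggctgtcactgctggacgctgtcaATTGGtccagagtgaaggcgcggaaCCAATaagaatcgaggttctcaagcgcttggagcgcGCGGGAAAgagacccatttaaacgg
Mcm6: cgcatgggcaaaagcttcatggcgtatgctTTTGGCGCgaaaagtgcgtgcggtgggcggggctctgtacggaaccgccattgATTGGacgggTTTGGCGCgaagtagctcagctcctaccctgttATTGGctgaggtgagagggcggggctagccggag
Tk1: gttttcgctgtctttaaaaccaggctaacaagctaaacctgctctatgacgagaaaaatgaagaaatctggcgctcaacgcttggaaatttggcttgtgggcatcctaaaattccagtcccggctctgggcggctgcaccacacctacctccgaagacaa
In Ccnb2 the CHR core lies close to the start with 3 CCAAT boxes upstream, and Top2a has the same 2 kinds of match with the core on the other strand. Pclaf and Mcm6 carry E2F letters and CCAAT boxes without the core. Tk1 shows no match.

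The matrices held 11430 cells, and those with 500 to 6000 genes and a mitochondrial share under 10% were used (10605 cells). A molecule was counted by its unique molecular identifier (UMI) at the 3′ end of the transcript, so levels do not scale with gene length, but 3′ capture differs between genes. Totals ran from 5036667 to 18894504 UMIs per mouse, and median UMIs per kept cell were 5589 to 7001 in E0771-Res2 and 7631 to 8160 in the other tumors. No barcode was shared between mice. The cells of all mice were tagged with oligos, pooled and captured together, and the most abundant tag held a median 42.0% (E0771 replicate 3) to 72.0% of a cell's tag counts. The part of shared free RNA and of mixed tags in the results was not tested. Lymphoid cells were those with at least 2 UMIs of Cd3d, Cd3e, Cd3g and Ncr1 (1284 cells). Myeloid cells had fewer than 2 of these and at least 10 UMIs of Lyz2, Cst3, Csf1r, Cd68 and Fcer1g. They were called C1qa-high with at least 10 UMIs of C1qa, a complement gene of macrophages (2330 cells), and C1qa-low with at most 1 (4474 cells). The summed level of the 12 T and NK cell markers was 3852 to 5915 counts scaled to a common library size (CPM) in lymphoid cells and 66.3 to 186.6 in the myeloid gates. The 7 macrophage markers summed to 19560 to 26580 CPM in C1qa-high, 2058 to 2894 in C1qa-low and 3844 to 8593 in lymphoid cells. The lymphoid cells thus also held myeloid RNA: 1002 of 1284 (78.0%) had at least 10 UMIs of the myeloid gate genes, with a median of 50, against 102.5 in C1qa-low cells. Of the lymphoid cells, 271 held 10 or more C1qa UMIs. Shares, ratios and fits were also computed without those 1002 cells (the fits added after seeing the data), which left 282 lymphoid cells, 16 to 56 per mouse, and calls that ended there are marked. Doublets were not called and were kept, and their part was not tested.

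The members' molecules were concentrated in few cells, the mitotic genes' more than the S-phase genes' by their medians. Each cell was thinned to 2500 UMIs, so that deeper cells would not seem to cycle more, and a cell was called cycling with at least 5 UMIs over the 38 genes. This left 9388 cells, of which 463 (4.93%, exact 95% interval 4.50 to 5.39) were cycling, and 3799 (40.5%) held none of the 38 genes. The interval covers counting error only. The threshold cut a continuous range, with 241 cells at 4 UMIs, 156 at 5 or 6, and 220 at 10 or more. To describe each gene without its own counts, cells were also called by the other 37 genes. Such cells then held a median 52.5% of the UMIs of a mitotic gene, from 15.3% for Cenpa, a centromeric histone, to 64.6% for Nusap1, a spindle-binding protein. For the S-phase genes the median was 33.3%, from 12.4% for Pcna to 68.3% for Pclaf. The list holds 23 mitotic genes (6513 thinned UMIs) and 14 S-phase genes (6710, of which 2625 were Pcna). Its part in this contrast was not tested. Stmn1 stood at 54.5%. All these values come from 4.27 to 4.93% of the cells.

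The spread within each role was wide. Pclaf was detected in 44.1% of cycling and 2.01% of other cells, and Mki67, the proliferation marker Ki-67, in 34.7% and 2.31%. Pcna, also a DNA repair clamp, was in 48.6% of cycling cells but also in 22% of the others. Cenpa was in 30.2% and 10.1%. Pcna and Cenpa were thus the 2 members least tied to the remaining genes. In mature dendritic cells, gated by Ccr7 and Fscn1 and used as a background, Pcna was detected in 12.5%, Cenpa in 10.7%, Mki67 in 2.68% and Pclaf in 2.23% of cells. Among the helicase genes, Mcm7 was the most concentrated (37.6%) and Mcm6 the least (23.7%). Gins2, a helicase cofactor, stood at 19.1%. The nucleotide enzymes ran from 33.6% (Rrm1) through 45% (Tyms) and 50.2% (Tk1) to 61.8% (Rrm2), the last being the ribonucleotide reductase subunit made in S phase. Of the mitotic kinases, Plk1 stood at 62.3%, Aurkb at 46.1%, Cdk1 at 39% and Aurka at 22.6%. The spindle motors Kif11 (64.1%) and Kif20a (62.2%) were high and Kif23 (25.8%) low, and the cyclins Ccna2, Ccnb1 and Ccnb2 lay together at 52.5, 48.1 and 53.4%. For the checkpoint kinases, Bub1 reached 57.3% and Bub1b 32.6%.

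**Figure D1:**
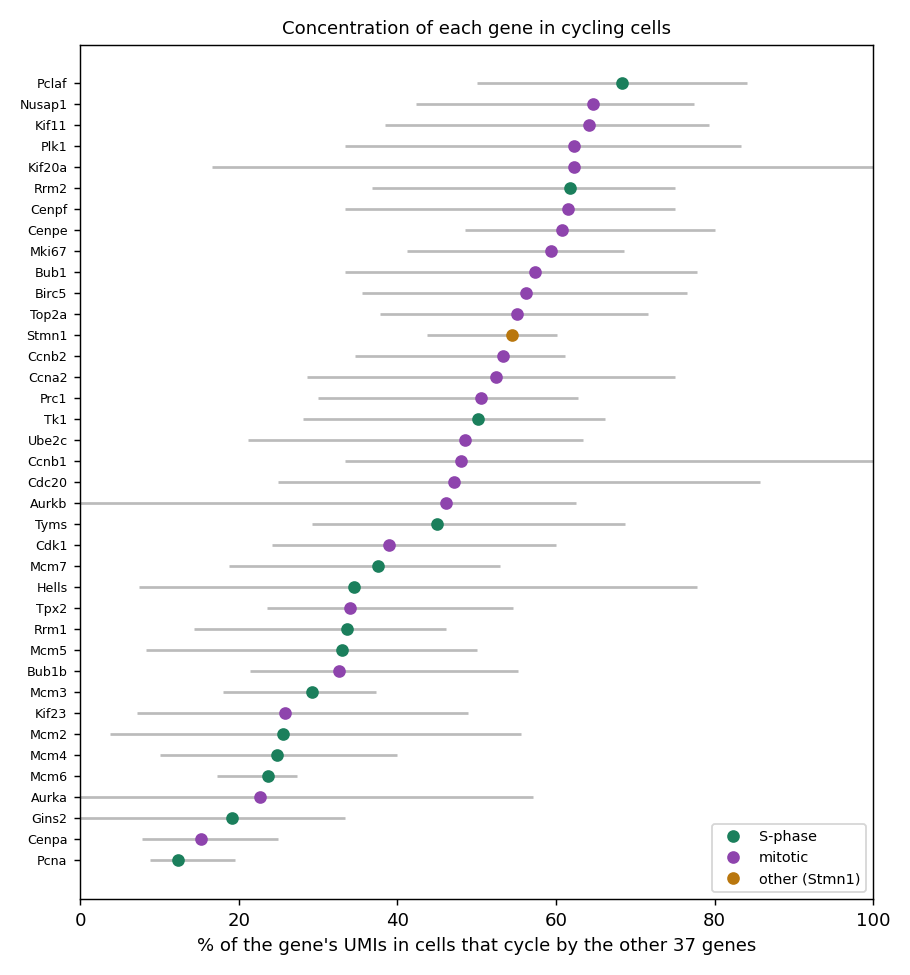
Share of each gene's UMIs, after thinning to 2500 UMIs per cell, that lay in cells called cycling by the other 37 genes. Points are all 8 mice pooled, gray lines the lowest to highest mouse; Pclaf is highest at 68.3%, and Cenpa (15.3%) and Pcna (12.4%) are lowest.

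Of the 3 gated classes, lymphoid cells had the highest cycling share in every mouse. In lymphoid cells the cycling share was 19.8% and 25.4% with parental tumors, 25.1%, 21.7% and 18.3% with E0771-Res1, and 9.15%, 15.1% and 10.7% with E0771-Res2. It was 4.25% and 3.88% with parental tumors, 9.6%, 4.67% and 5.06% with E0771-Res1, and 3.54%, 4.2% and 4.98% with E0771-Res2 for C1qa-high myeloid cells. In C1qa-low myeloid cells it was 1.23% and 0.683% with parental tumors, 1.18%, 0.373% and 1.25% with E0771-Res1, and 1.36%, 1.69% and 1.42% with E0771-Res2. Within each mouse the lymphoid share was the highest and C1qa-high lay above C1qa-low. Across mice the classes overlapped: C1qa-high cells of E0771-Res1 replicate 1 (9.6%) lay above lymphoid cells of E0771-Res2 replicate 1 (9.15%). Over 8 mice the means were 18.2% ± 6.11 (SD) for lymphoid, 5.02% ± 1.92 for C1qa-high and 1.15% ± 0.423 for C1qa-low cells. Within a mouse, the lymphoid share was 17.0 ± 6.39 percentage points (SD) above the C1qa-low share and 13.1 ± 5.52 above the C1qa-high share, and the C1qa-low share minus the C1qa-high share was -3.87 ± 1.96 points. Each difference had 1 direction in 8 of 8 mice. Two-sided exact sign-flip permutation tests gave p = 0.0078 for all 3, the smallest p that 8 pairs allow (0.0094 adjusted over 6 paired tests).

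Depth and free RNA were set beside these shares. Before thinning the lymphoid share was 51.4% ± 7.28 (SD, n = 8), the C1qa-high share 35.9% ± 7.44 and the C1qa-low share 13.4% ± 2.84, so the order was the same at other levels. Median depths were 9475, 9529 and 7026 UMIs. The gates counted UMIs before thinning, so a deeper cell reached the lymphoid and C1qa-high gates more easily. Among all kept cells, cycling cells were deeper than the others in each mouse. Their medians ran from 8579 to 15169.5 UMIs, against 6257.5 to 8616 in the other cells. Shares under a gate scaled to depth are not given here. Mature dendritic cells gave 4 of 224 (1.79%, 95% interval 0.489 to 4.51), with a median of 8400.5 UMIs. Those 4 cells came from E0771 replicate 1 (2 of 32) and E0771-Res2 replicate 3 (2 of 43). The gate of mature dendritic cells sets no limit on C1qa, so it can share cells with the C1qa-low gate. The C1qa-low share, 51 of 4080 cells (1.25%, 95% interval 0.932 to 1.64), lay within that wide interval and is not read here as evidence of cycling. Because the 2 groups are not separate, the comparison cannot show whether C1qa-low cells cycled. Of the 463 cycling cells, 219 (47.3%) were lymphoid, 130 (28.1%) C1qa-high, 48 (10.4%) myeloid with 2 to 9 C1qa UMIs, 51 (11%) C1qa-low and 15 (3.24%) in neither gate. The highest 5% of cells by UMIs in each mouse held 139 (30.0%) of them. Leaving those cells out, or the lymphoid cells with myeloid RNA, or cells with tumor or stromal markers, kept all 3 differences between classes past the threshold.

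**Figure D2:**
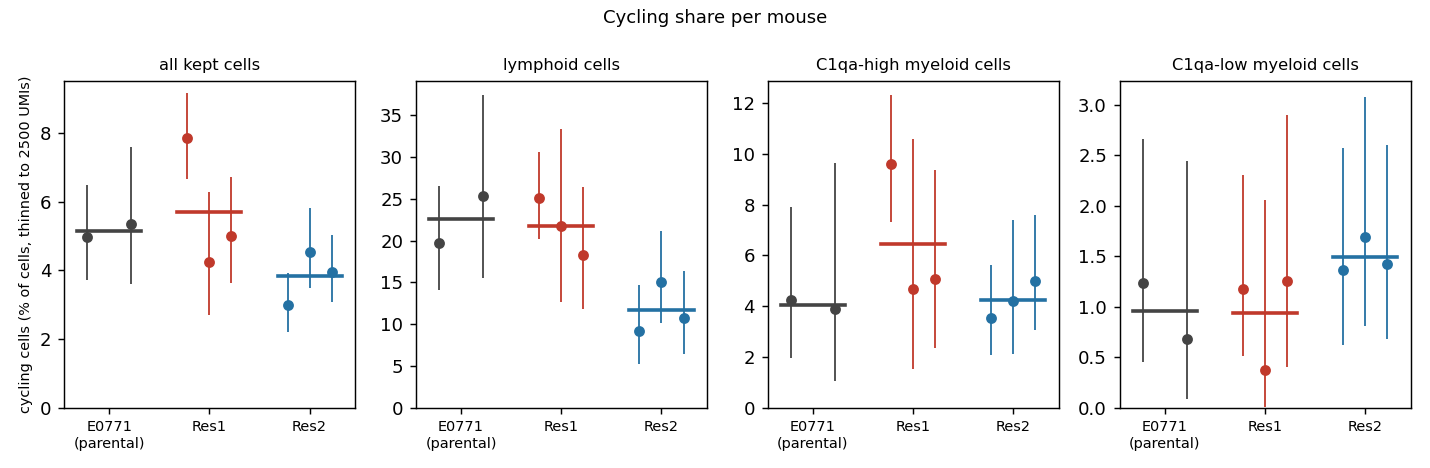
Share of cycling cells (at least 5 UMIs over the 38 genes, thinned to 2500 UMIs) in % of cells, 1 point per mouse with its exact 95% counting interval; horizontal bars are line means, and the 4 panels have their own vertical scales from 0. The E0771-Res2 mice lie lowest in lymphoid cells (9.15 to 15.1%), and E0771-Res1 replicate 1 lies above the others in all kept and C1qa-high cells.

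Most genes followed the same order. UMIs were summed per mouse and class and compared within mice with edgeR's quasi-likelihood test (Benjamini-Hochberg adjustment over 9328 genes). Of the 37 members tested, 37 were higher in lymphoid than in C1qa-low cells, where 63.7% of all genes were called and 32.8% were higher, with a median log2 difference of 2.69 against 0.04 over all genes. Against C1qa-high cells 37 of 37 were also higher (60.1% of all genes called, 30.4% higher), with a median of 1.56 against 0.00 over all genes. C1qa-low cells were lower than C1qa-high cells for 32 of 37 and higher for 1, Cenpa, where 56% of all genes were called, 28.6% lower and 27.4% higher, with a median of -1.08 against -0.02. Aurka, Kif11, Kif23 and Prc1 were not called there, and Kif20a did not pass the filter on low counts. In such sums, more cycling cells and more RNA per cycling cell cannot be told apart. Of S-phase genes the median was 2.50 in lymphoid against C1qa-low cells and 1.29 against C1qa-high cells. The mitotic genes had medians of 2.77 and 1.66.

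Among the S-phase genes, the clamp gene Pcna stood at 190.3, 235 and 293 CPM (lowest, median and highest of 8 mice) in lymphoid, 129, 146 and 179 in C1qa-high and 105, 116 and 133 in C1qa-low cells. The lymphoid mice lay above every myeloid value. Pclaf, which binds the clamp, stood at 89.6, 209.5 and 337 CPM in lymphoid, 7.5, 23.3 and 78.2 in C1qa-high and 7.66, 11.6 and 31.2 in C1qa-low cells. Its log2 difference between lymphoid and C1qa-low cells was 3.35 ± 0.29 (SE; adjusted p = 1.63e-10, edgeR), against 0.71 ± 0.08 for Pcna (adjusted p = 7.34e-09). The myeloid ranges of Pclaf overlapped. Of the helicase subunits, Mcm3 stood at 52.5, 79.9 and 98.1 CPM in lymphoid, 23.4, 34.8 and 48.8 in C1qa-high and 9.96, 13.2 and 15.8 in C1qa-low cells. Mcm6 stood at 64, 91.8 and 114 CPM in lymphoid, 19.3, 26.5 and 41.8 in C1qa-high and 9.7, 12.1 and 14.9 in C1qa-low cells. For both, the values of the 3 classes were apart. Mcm2, Mcm5 and Mcm7 had log2 differences of 2.24 ± 0.16, 2.44 ± 0.16 and 2.63 ± 0.17 (SE) between lymphoid and C1qa-low cells, with adjusted p of 5.21e-12, 6.03e-13 and 2.35e-13 (edgeR). Hells, a chromatin remodeler, stood at 26.2, 46.2 and 55.1 CPM in lymphoid, 7.5, 12.2 and 20.3 in C1qa-high and 1.53, 5.27 and 7.09 in C1qa-low cells. Rrm1, the large ribonucleotide reductase subunit, stood at 27.3, 60.2 and 71.5 CPM in lymphoid, 13.3, 18.9 and 36 in C1qa-high and 6.89, 10.6 and 13 in C1qa-low cells. Lymphoid mice were above all C1qa-low mice for every gene of this paragraph. Thymidylate synthase, Tyms, stood at 37.9, 62 and 109 CPM in lymphoid, 8.9, 11.8 and 34.1 in C1qa-high and 4.96, 6.65 and 9.74 in C1qa-low cells. Thymidine kinase, Tk1, stood at 25.9, 44.8 and 91.8 CPM in lymphoid, 4.69, 14.6 and 45.9 in C1qa-high and 3.7, 4.51 and 8.49 in C1qa-low cells. The highest C1qa-high value of Tk1, in E0771-Res1 replicate 1, lay within the lymphoid range.

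Among the mitotic genes, Cenpa stood at 139.9, 188 and 212 CPM (lowest, median and highest of 8 mice) in lymphoid, 31.9, 48.8 and 57 in C1qa-high and 53, 56.9 and 92.8 in C1qa-low cells. It was the 1 gene higher in C1qa-low than in C1qa-high cells (0.48 ± 0.09 log2, SE; adjusted p = 3.95e-05, edgeR). Top2a, the topoisomerase that untangles chromosomes, stood at 118, 222 and 281 CPM in lymphoid, 19.6, 24.4 and 64.4 in C1qa-high and 10.5, 16.7 and 25.1 in C1qa-low cells. Mki67 stood at 89.6, 169 and 248 CPM in lymphoid, 16.9, 26.1 and 57.6 in C1qa-high and 7.66, 11 and 21.5 in C1qa-low cells. The log2 difference between lymphoid and C1qa-low cells was 3.25 ± 0.19 for Top2a and 3.31 ± 0.22 for Mki67 (SE; adjusted p = 8.62e-14 and 7.74e-13, edgeR). Birc5, survivin of the chromosomal passenger complex, stood at 53.9, 115 and 207 CPM in lymphoid, 5.63, 24.9 and 70.5 in C1qa-high and 6.8, 11.4 and 21.2 in C1qa-low cells. Ube2c, the ubiquitin-conjugating enzyme of the anaphase complex, stood at 70.7, 101 and 169 CPM in lymphoid, 10.3, 22.6 and 44.6 in C1qa-high and 7.75, 11.8 and 16.4 in C1qa-low cells. Both were higher in every lymphoid than in every C1qa-low sum. Cenpe, a kinetochore motor, stood at 23.8, 45.8 and 55.9 CPM in lymphoid, 3.62, 12.6 and 20.3 in C1qa-high and 2.55, 3.68 and 6.17 in C1qa-low cells. Cenpf, a kinetochore protein, stood at 30.1, 75.1 and 101 CPM in lymphoid, 3.11, 11.2 and 17.7 in C1qa-high and 2.55, 4.45 and 8.24 in C1qa-low cells. Cyclin B2, Ccnb2, stood at 17.5, 37.5 and 54.1 CPM in lymphoid, 3.11, 8.36 and 24.5 in C1qa-high and 1.93, 2.92 and 6.25 in C1qa-low cells. The widest log2 difference between lymphoid and C1qa-low cells was that of Cenpf (3.45 ± 0.25, SE; adjusted p = 3.01e-12, edgeR), and the narrowest mitotic one that of Aurka (1.23 ± 0.24; adjusted p = 6.62e-05). Stmn1 stood at 226, 371 and 506 CPM in lymphoid, 57.2, 67.2 and 211 in C1qa-high and 17.4, 28.1 and 55.7 in C1qa-low cells. It was higher in lymphoid cells by 3.21 ± 0.22 log2 against C1qa-low and 1.88 ± 0.20 against C1qa-high cells (SE; adjusted p = 1.28e-12 and 8.69e-09, edgeR).

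**Figure D3:**
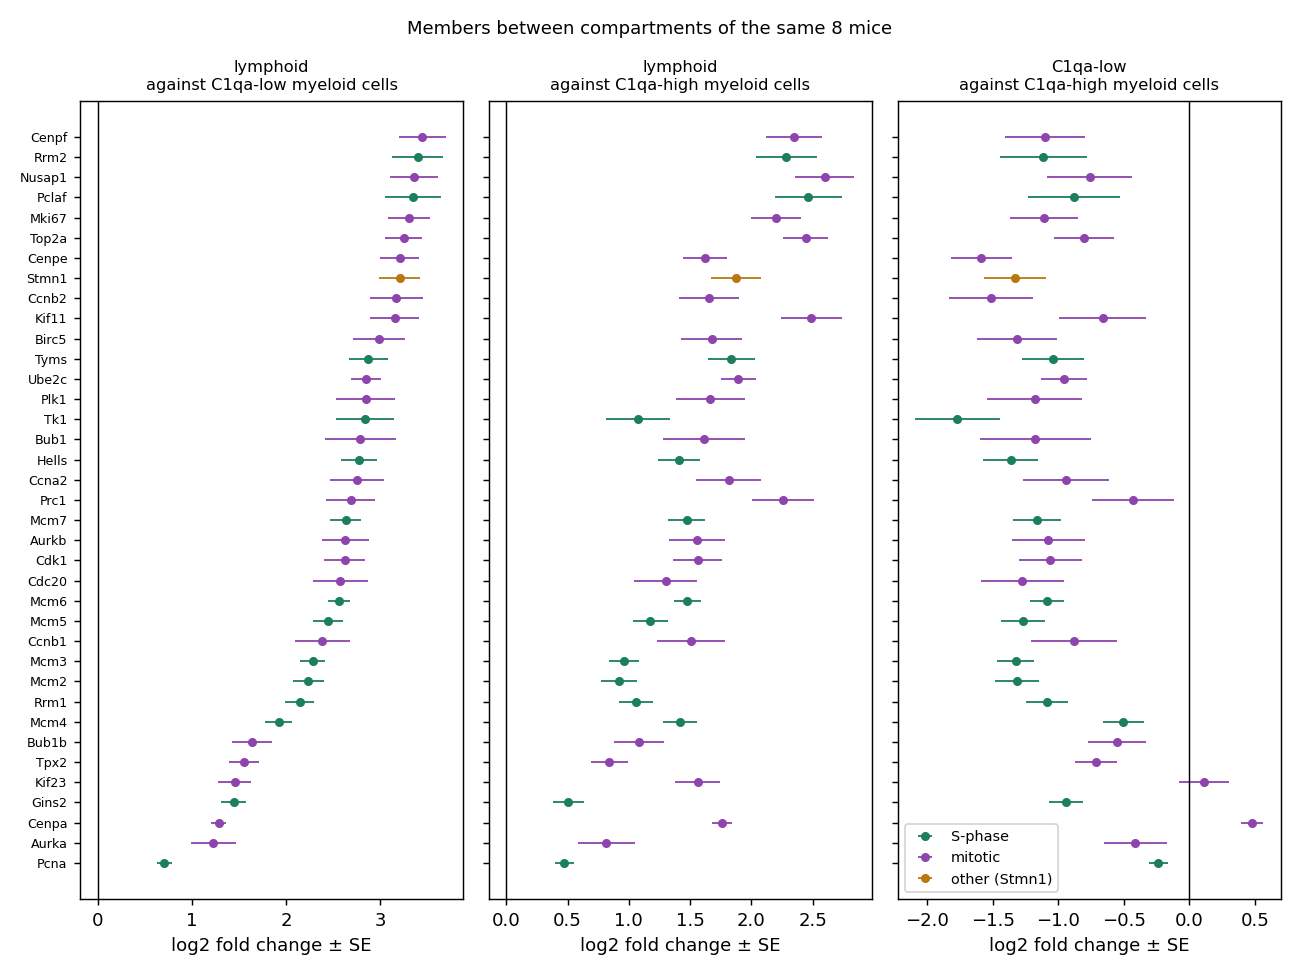
Log2 fold change ± SE (edgeR, 8 mice paired by animal) of the 37 tested genes between cell classes, colored by role and ordered by the first panel. All points lie right of 0 in both lymphoid panels; in the third panel all but Cenpa and Kif23 lie left of 0.

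Other regulators of the cycle, a list of 43 genes of which 36 were tested, differed in both directions. Between lymphoid and C1qa-low cells 24 of 36 were higher and 8 lower, where 32.8% of all genes were higher and 30.9% lower. The 5 highest log2 differences were those of Chek1 (3.16), Fbxo5 (2.95), Cdc45 (2.94), Uhrf1 (2.77) and Cdc25b (2.17), which act in replication, its checkpoint and entry into mitosis. The 5 lowest were Ccnd1 (-1.05), Cdkn1a (-1.03), Cdkn2d (-0.48), Btg2 (-0.48) and E2f2 (-0.41), of which Cdkn1a (p21) and Cdkn2d are inhibitors of cyclin-dependent kinases and Ccnd1 is cyclin D1. Against C1qa-high cells 28 of 36 were higher and 5 lower, where 30.4% of all genes were higher and 29.8% lower. The highest were Cdc25b (2.17), Fbxo5 (1.94), Chek1 (1.81), Cdkn2c (1.70) and Cdc45 (1.62). The 5 lower ones were Ccnd1 (-1.02), Cdkn1a (-0.71), Rb1 (-0.43), E2f1 (-0.43) and Cdt1 (-0.38). C1qa-low cells exceeded C1qa-high cells for 9 of 36 genes and were lower for 13, against 27.4% higher and 28.6% lower of all genes. Those counts are near the share of all genes and are not read as a result about the regulators. The highest of the 9 were Cdkn2d (1.64), Ccnd3 (1.36), Btg1 (0.99), E2f2 (0.98) and Cdkn1b (0.94), which include the inhibitors Cdkn2d and Cdkn1b and the antiproliferative Btg1. The lowest of the 13 were Uhrf1 (-1.42), Chek1 (-1.35), Cdc45 (-1.32), Fbxo5 (-1.01) and E2f1 (-0.83).

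With all genes counted, the balance of S-phase and mitotic UMIs differed between lymphoid and myeloid cells, but not in every alternative. The UMIs of the 14 S-phase genes per UMI of the 23 mitotic genes were summed over all kept cells of a class, cycling or not, without thinning. Pcna gave 2395 of 11072 S-phase UMIs in lymphoid, 3033 of 8788 in C1qa-high and 2957 of 5816 in C1qa-low cells. Cenpa gave 1893 of 14120, 956 of 7062 and 1561 of 5056 mitotic UMIs in the same order. In lymphoid cells this ratio was 0.724 and 0.782 with parental tumors, 0.815, 0.902 and 0.823 with E0771-Res1, and 0.911, 0.669 and 0.745 with E0771-Res2. It was 1.66 and 0.893 with parental tumors, 1.15, 1.86 and 1.67 with E0771-Res1, and 1.39, 1.1 and 1.1 with E0771-Res2 for C1qa-high cells. In C1qa-low cells it was 1.14 and 1.19 with parental tumors, 1.33, 1.25 and 0.965 with E0771-Res1, and 1.03, 1.17 and 1.24 with E0771-Res2. Lymphoid cells were below 1 in 8 of 8 mice and lowest of the 3 classes in each mouse. The means were 0.796 ± 0.0842, 1.35 ± 0.345 and 1.16 ± 0.119 (SD, n = 8). On the log2 scale the lymphoid ratio differed by -0.55 ± 0.23 from the C1qa-low and by -0.73 ± 0.34 from the C1qa-high ratio (SD; two-sided exact sign-flip permutation p = 0.0078 each, 0.0094 adjusted over 6 tests). C1qa-low and C1qa-high cells differed by -0.18 ± 0.45, lower in 4 and higher in 4 of 8 mice (exact permutation p = 0.297). Without Pcna and Cenpa, the least concentrated genes, a choice made after the data were seen, the means were 0.721 ± 0.0771, 1.01 ± 0.311 and 0.829 ± 0.120, and the lymphoid difference was -0.20 against C1qa-low (exact permutation p = 0.0781) and -0.42 against C1qa-high cells (exact permutation p = 0.0391). At an unadjusted p under 0.05 the first call was thus lost. The p-values of these alternatives were not adjusted over the 6 tests, so the second is not shown to hold after adjustment. Leaving out lymphoid cells with myeloid RNA gave -0.32 (exact permutation p = 0.219) and -0.50 (exact permutation p = 0.156), and both calls were lost. Without the 5% of cells with most UMIs the difference against C1qa-high cells was -0.46 (exact permutation p = 0.0625).

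**Figure D4:**
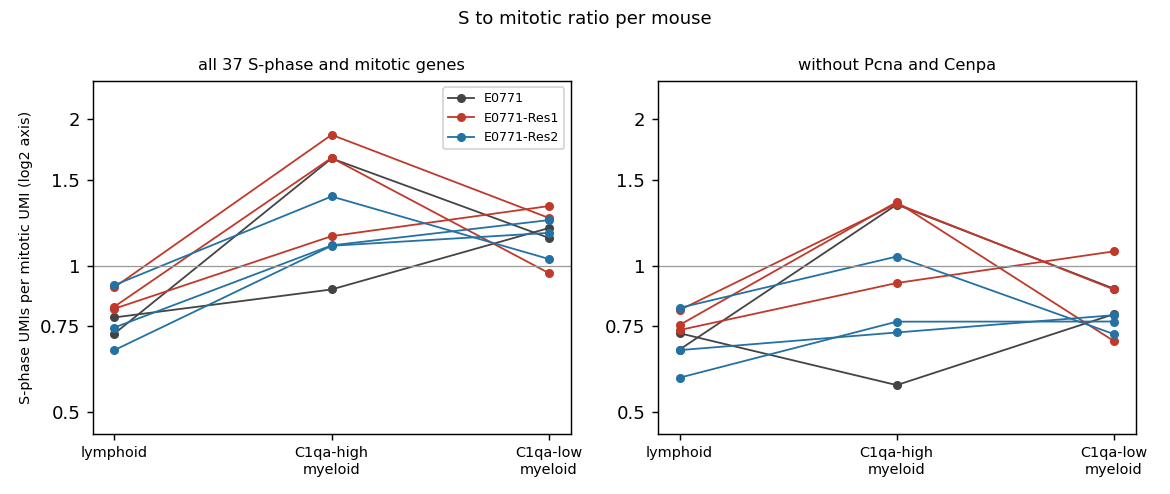
Summed S-phase UMIs per mitotic UMI (log2 axis) in 3 cell classes, 1 line per mouse colored by tumor line, with all 37 genes of both roles (left) and without Pcna and Cenpa (right). With all genes every lymphoid value is below 1 and below the other values of its mouse; without both genes the lymphoid ratio is not the lowest of its mouse in 3 mice (E0771 replicate 3, E0771-Res1 replicate 3 and E0771-Res2 replicate 1).

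Single cells were also sorted by phase. A cell, cycling or not, was called S-positive or mitotic-positive with at least 3 UMIs of those genes after thinning. Counts are given first among cycling cells. Of 219 cycling lymphoid cells, 63 were S-positive alone, 35 mitotic-positive alone, 114 both and 7 neither. Of 130 C1qa-high cells, 45, 45, 36 and 4 fell into these classes, and of 51 C1qa-low cells 20, 22, 9 and 0. Cells positive for both kinds were thus the most frequent kind in lymphoid cells but not in the myeloid gates. Mean S-positive shares of all cells of a class, cycling or not, were 18.1% ± 5.55, 5.48% ± 2 and 1.54% ± 0.755 in lymphoid, C1qa-high and C1qa-low cells (SD, n = 8), and mitotic-positive shares 15.1% ± 4, 4.13% ± 1.65 and 1.86% ± 0.736. Lymphoid cells had both shares highest in 8 of 8 mice, and these counts were not tested for phase.

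Across tumor lines, no difference in the cycling share of all kept cells passed a test. It was 4.97% and 5.35% with parental tumors, 7.84%, 4.24% and 5.01% with E0771-Res1, and 2.99%, 4.54% and 3.97% with E0771-Res2. The mice of the 3 lines overlapped, except that the E0771-Res2 mice lay below both parental mice. Means were 5.16% ± 0.272 with parental tumors (SD, n = 2), 5.69% ± 1.9 with E0771-Res1 (SD, n = 3) and 3.83% ± 0.787 with E0771-Res2 (SD, n = 3). The resistant minus parental difference was -0.395 points (two-sided exact permutation test over 28 splits, p = 0.714, adjusted p = 0.714 over 6 tests). It pools 2 derivatives whose means lay on opposite sides of the parental mean (0.537 points for E0771-Res1, -1.33 for E0771-Res2). With 2 parental mice, no test over 28 splits here or below could give p under 0.0357 before adjustment. Absence of a pass is therefore weak information. Median depths were lower in E0771-Res2, and thinning left out 13.5% of its kept cells against 9.15% in parental and 9.63% in E0771-Res1 tumors. Of single genes, edgeR called 0 of 38 members in E0771-Res1 against parental, where 0.0353% of all genes were called, and 0 of 38 in E0771-Res2 against parental, where 4.37% were. At an unadjusted p under 0.05, 3 of 38 members passed in each, against 10.5% and 20.6% of all genes. DESeq2 called 0 (0.609% of all genes) and 1 (4.82%). E0771-Res2 against E0771-Res1 gave 2 of 38, both lower, where 4.2% of all genes were called and 1.71% were lower. At an unadjusted p under 0.05, 12 passed (19.8% of all genes), and DESeq2 called 5 (4.48%). The count of 2 is near the share of all genes called in either direction and is not read as a result about the members. The called genes were Tk1 and Pclaf. Tk1 stood at 15.2 and 13.4 CPM with parental tumors, 28, 17.2 and 20.1 with E0771-Res1, and 13.4, 11.5 and 11.6 with E0771-Res2. Its log2 difference was -0.88 ± 0.17 (SE; adjusted p = 0.0127, edgeR). Pclaf stood at 51.2 and 58.2 CPM with parental tumors, 75.8, 41.8 and 57.3 with E0771-Res1, and 38, 38.7 and 34.6 with E0771-Res2. Its difference was -0.69 ± 0.16 (SE; adjusted p = 0.035, edgeR). The E0771-Res2 values of Pclaf were the 3 lowest of 8, and the highest E0771-Res2 value of Tk1 was at the lower parental one. Median log2 differences were -0.41 for S-phase and -0.20 for mitotic genes, against 0.00 for all genes. At thinning depth, lymphoid cells were 239 of 1569 cells with parental tumors, 472 of 3218 with E0771-Res1 and 511 of 4601 with E0771-Res2. The part of this makeup in the sums over all kept cells was not tested. Of the 38 members, 29 had their highest value in E0771-Res1 replicate 1, a count not made over all genes. The 2 calls became 6 without E0771-Res1 replicate 2 and 4 without E0771-Res2 replicate 2. They became 1 without either parental mouse, E0771-Res1 replicate 1 or E0771-Res2 replicate 1, and 0 without E0771-Res2 replicate 3. The shares of all genes called in those fits are not given here. Without the lymphoid cells holding myeloid RNA, added after seeing the data, 0 were called (3.94% of all genes), and the members' median was -0.13, with 26 of 38 below 0. The median over all genes of that fit is not given here.

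In lymphoid cells the E0771-Res2 tumors had the lowest cycling shares, as given above (9.15 to 15.1% against 18.3 to 25.4% in the other 5 mice). Means were 22.6% ± 3.96 with parental tumors (SD, n = 2), 21.7% ± 3.38 with E0771-Res1 (SD, n = 3) and 11.6% ± 3.08 with E0771-Res2 (SD, n = 3). Resistant minus parental was -5.89 points (two-sided exact permutation test over 28 splits, p = 0.286, adjusted p = 0.686). The difference of single lines was -0.85 points for E0771-Res1 minus parental (exact permutation p = 0.7), -10.9 for E0771-Res2 minus parental and -10.1 for E0771-Res2 minus E0771-Res1 (exact permutation p = 0.1 each, the smallest p these groups allow). These permutation tests could not go below 0.1. The E0771-Res2 mice did not overlap with the others, but the difference was not shown by these tests. Thinned to 1500 UMIs, the E0771-Res2 minus parental difference was -6.34 points and that from E0771-Res1 -5.91.

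The single genes were below the other lines in E0771-Res2 in nearly all cases, though few passed the test. Without the lymphoid cells that held myeloid RNA, most members tested were not below the other lines. No member was called in that smaller fit, and its direction is not read as a result about the members. E0771-Res1 against parental gave 0 of 38 calls by edgeR (0.0433% of all genes called). There 1 member had an unadjusted p under 0.05 (5.22% of all genes), and DESeq2 called 0 (0.0324%). E0771-Res2 against parental gave 1 of 38, lower, where 0.952% of all genes were called and 0.205% were lower, with 14 members at an unadjusted p under 0.05 (11.3% of all genes), 37 of 38 below 0 and a median of -0.43 against 0.00. E0771-Res2 against E0771-Res1 gave 3 of 38, all lower, where 1.02% of all genes were called and 0.227% were lower, with 18 at an unadjusted p under 0.05 (11.1%), 38 of 38 below 0 and a median of -0.40 against 0.00. The S-phase and mitotic medians were -0.45 and -0.38 against parental and -0.45 and -0.37 against E0771-Res1. Because both comparisons use the same E0771-Res2 mice, they are not independent.

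Of the genes called, Pclaf stood in lymphoid cells at 178 and 337 CPM with parental tumors, 243, 249 and 241 with E0771-Res1, and 89.6, 154 and 136 with E0771-Res2. The 3 E0771-Res2 values were the lowest, and the log2 difference was -0.96 ± 0.22 against parental (adjusted p = 0.0448) and -0.95 ± 0.19 against E0771-Res1 (adjusted p = 0.0232) (SE, edgeR). Tk1 stood at 42.3 and 56.8 CPM with parental tumors, 47.2, 91.8 and 64.1 with E0771-Res1, and 25.9, 32.5 and 33.2 with E0771-Res2. Here too E0771-Res2 lay below the other 5 mice, with -0.63 ± 0.27 against parental (adjusted p = 0.368) and -1.02 ± 0.22 against E0771-Res1 (adjusted p = 0.0369) (SE, edgeR). Ccnb2 stood at 43.6 and 39.6 CPM with parental tumors, 54.1, 35.3 and 52.4 with E0771-Res1, and 17.5, 30.2 and 30.0 with E0771-Res2. It was also lowest in the 3 E0771-Res2 mice, with -0.71 ± 0.25 against parental (adjusted p = 0.253) and -0.95 ± 0.21 against E0771-Res1 (adjusted p = 0.0421) (SE, edgeR). Tyms, the other enzyme of thymidylate supply, stood at 55.1 and 102 CPM with parental tumors, 77.5, 109 and 68.9 with E0771-Res1, and 46.9, 50.6 and 37.9 with E0771-Res2, and its differences were -0.66 ± 0.24 against parental (adjusted p = 0.284) and -0.85 ± 0.21 against E0771-Res1 (adjusted p = 0.0608) (SE, edgeR). These groups did not overlap either, but Tyms was not called.

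The remaining abundant genes were not called in lymphoid cells. Among S-phase genes, Pcna stood at 219 and 251 CPM with parental tumors, 272, 293 and 239.8 with E0771-Res1, and 190.3, 229.6 and 193 with E0771-Res2. Mcm3 stood at 82 and 98.1 CPM with parental tumors, 98.1, 90.0 and 74.8 with E0771-Res1, and 52.5, 77.8 and 60.1 with E0771-Res2. Mcm6 stood at 92.3 and 114 CPM with parental tumors, 111, 111 and 80.6 with E0771-Res1, and 73.5, 91.4 and 64 with E0771-Res2. In each, E0771-Res2 had the lowest mean, and its mice overlapped with those of another line. Of the mitotic genes, Cenpa stood at 212 and 205 CPM with parental tumors, 201, 185 and 190.3 with E0771-Res1, and 139.9, 177 and 166 with E0771-Res2. The E0771-Res2 values of Cenpa were the 3 lowest. Top2a stood at 226 and 281 CPM with parental tumors, 232, 214 and 217 with E0771-Res1, and 118, 242 and 150.2 with E0771-Res2. For Mki67 the values were 170.4 and 199.7 CPM with parental tumors, 168, 240.0 and 149 with E0771-Res1, and 89.6, 248 and 102 with E0771-Res2. In both genes E0771-Res2 replicate 2 lay within or above the other lines, and the other E0771-Res2 mice were the lowest of all 8. Birc5 stood at 106 and 207 CPM with parental tumors, 133, 118 and 148 with E0771-Res1, and 53.9, 112 and 81.4 with E0771-Res2. Ube2c stood at 108 and 157 CPM with parental tumors, 169, 79.4 and 122 with E0771-Res1, and 70.7, 93.6 and 89.3 with E0771-Res2. Both had overlapping groups. Stmn1 stood at 307 and 506 CPM with parental tumors, 400.1, 376 and 500.0 with E0771-Res1, and 226, 366 and 258 with E0771-Res2, with -0.48 ± 0.20 against parental (adjusted p = 0.357) and -0.59 ± 0.18 against E0771-Res1 (adjusted p = 0.152) (SE, edgeR).

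**Figure D5:**
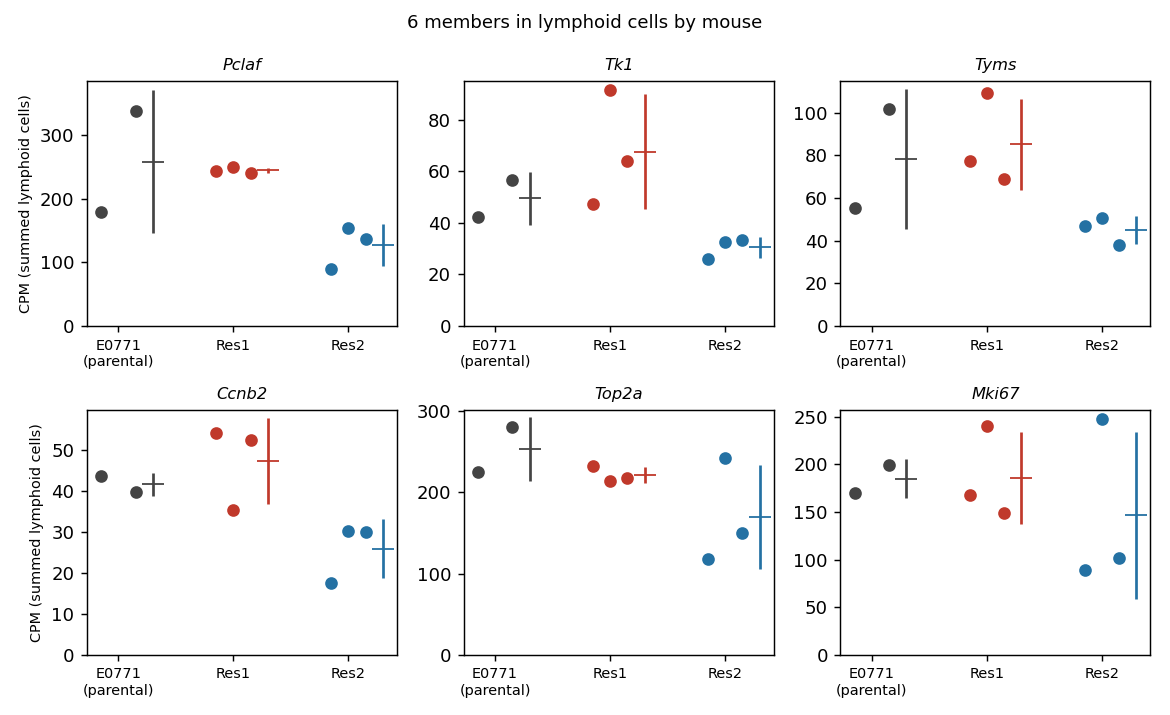
CPM of 6 genes in the summed lymphoid cells of each mouse, with the mean and SD of each line; each panel has its own scale from 0. E0771-Res2 lies below the other lines in Pclaf, Tk1, Tyms and Ccnb2, while its replicate 2 overlaps with them in Top2a and is the highest mouse in Mki67.

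The calls in lymphoid cells depended on single mice. Though no such count was made over all genes, E0771-Res2 replicate 1 had the lowest value for 28 of 38 genes. Without it, 0 genes were called in either comparison with E0771-Res2, and without E0771-Res2 replicate 3 also 0 in both. Leaving out E0771-Res2 replicate 2, whose summed level of the 38 genes was 2924 CPM against 1780 and 2141 in the other E0771-Res2 mice, gave 8 calls against parental and 15 against E0771-Res1. Without E0771 replicate 3 or any E0771-Res1 mouse, 0 were called against parental. Against E0771-Res1 the count was 1 without E0771-Res1 replicate 1 and 0 without replicate 3. The shares of all genes called in these fits without a mouse are not given here. The counts are thus not read as a result about the members. DESeq2 called 0 against parental (0.811% of all genes), with 11 at an unadjusted p under 0.05, and 2 against E0771-Res1 (0.692%). The share of all genes at an unadjusted p under 0.05 by DESeq2 is not given here, so the 11 cannot be set against it. Without the filter on low counts 8 and 11 were called (2.19% and 2.04% of all genes). In the 282 lymphoid cells without myeloid RNA, added after seeing the data, edgeR tested 26 members and called 0 against parental and 0 against E0771-Res1 (0.71% and 0.0819% of all genes), with 2 and 7 at an unadjusted p under 0.05. There 6 and 8 of the 26 lay below 0, and the medians were 0.43 and 0.24. For this fit the shares of all genes at an unadjusted p under 0.05 and the medians over all genes are not given here. The 2 and 7 and both medians are thus not read as a result about the members. Pclaf differed by 0.10 ± 0.40 log2 from parental and 0.17 ± 0.35 from E0771-Res1 (SE; adjusted p = 0.979 and 0.984, edgeR), and Tk1 by -0.11 ± 0.48 and -0.39 ± 0.41 (SE; adjusted p = 0.983 and 0.956, edgeR). Ccnb2 did not pass the filter there. The cycling share of these cells lay below the other lines in E0771-Res2 (-11.5 points against parental and -10.3 against E0771-Res1, exact permutation p = 0.1 each).

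The makeup of the lymphoid gate also differed between the lines, in E0771-Res1 as well as in E0771-Res2. CD8 T cells (Cd8a and Cd8b1, without Foxp3) were 33.7 and 29.9% of gated cells at that depth with parental tumors, 20.9, 13.0 and 19.2% with E0771-Res1, and 8.54, 14.5 and 14.9% with E0771-Res2. Cells with none of the CD8, Foxp3 or NK patterns were 36.6 and 41.8%, 44.9, 49.3 and 48.3%, and 55.5, 53.6 and 58.3%, in the same order of lines. The T and NK cell markers of lymphoid cells summed to 5773 to 5915 CPM with parental tumors, 4832 to 5091 with E0771-Res1 and 3852 to 4583 with E0771-Res2, and the macrophage markers to 3844 to 5415, 4971 to 7686 and 6424 to 8593. The 8 tumor and stromal markers, of which Dcn and Krt19 were at 0, summed to 5.77 to 12.1, 10.7 to 16.6 and 10.3 to 21.7 CPM. Beyond the values without cells holding myeloid RNA, the part of this makeup in the lower levels was not tested. Over 8 mice CD8 T cells were cycling in 82 of 234 (35%, 95% interval 28.9 to 41.5), regulatory T cells (Foxp3) in 68 of 277 (24.6%, 95% interval 19.6 to 30.1), NK cells in 21 of 116 (18.1%, 95% interval 11.6 to 26.3) and the remaining lymphoid cells in 48 of 595 (8.07%, 95% interval 6.01 to 10.6). Before thinning the median depth was 12391 UMIs in CD8 T cells and 8732 in the remaining ones. Per mouse the CD8 share was 31% and 45% with parental tumors, 35.6%, 44.4% and 47.8% with E0771-Res1, and 14.3%, 34.6% and 32% with E0771-Res2, with overlap between the lines. Gated CD8 T cells numbered only 9 to 59 per mouse. In regulatory T cells the share was 37.8% and 36.4% with parental tumors, 30.4%, 16.7% and 13.3% with E0771-Res1, and 20.4%, 14.7% and 23.5% with E0771-Res2, highest in the parental mice. This difference was not tested, and the gate held 11 to 69 cells per mouse (4 of 11 cycling in E0771 replicate 3). Among the remaining lymphoid cells the cycling share was 1.59% and 3.57% with parental tumors, 15.8%, 17.6% and 10.3% with E0771-Res1, and 4.4%, 8.33% and 2.04% with E0771-Res2. There the E0771-Res1 mice lay above all the others, a difference that was not tested and rests on 48 cycling cells.

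In C1qa-high myeloid cells no difference between lines passed a test, and the permutation test had the floor given above. Mean cycling shares were 4.06% ± 0.256 with parental tumors (SD, n = 2), 6.44% ± 2.74 with E0771-Res1 (SD, n = 3) and 4.24% ± 0.718 with E0771-Res2 (SD, n = 3), and resistant minus parental was 1.28 points (two-sided exact permutation test over 28 splits, p = 0.429, adjusted p = 0.686). edgeR called 0 of 37 members in all 3 comparisons, where 0.109% (E0771-Res1 against parental), 1.77% (E0771-Res2 against parental) and 2.68% (E0771-Res2 against E0771-Res1) of all genes were called. At an unadjusted p under 0.05, 8, 1 and 11 members passed, against 11.9, 14.6 and 15.8% of all genes, and DESeq2 called 0 in each (0.7, 2 and 1.95% of all genes). Though no such count was made over all genes, E0771-Res1 replicate 1 was the highest mouse for 31 of 38 genes. Its summed level of the 38 genes was 1412 CPM, against 534.6 to 757.9 in the other 7 mice, and its cycling share was 9.60% against 3.54 to 5.06%. The median log2 difference of E0771-Res1 against parental was 0.76 over the members and 0.00 over all genes. Top2a stood at 22.8 and 22.2 CPM with parental tumors, 64.4, 19.7 and 36.1 with E0771-Res1, and 19.6, 37.5 and 26 with E0771-Res2. For Birc5 the values were 17.6 and 33.4 CPM with parental tumors, 70.5, 5.63 and 17.4 with E0771-Res1, and 28.9, 21 and 32 with E0771-Res2. Both were highest in E0771-Res1 replicate 1. Of the S-phase genes, Mcm3 stood at 28.5 and 23.4 CPM with parental tumors, 48.8, 35.6 and 43 with E0771-Res1, and 34, 37 and 25.6 with E0771-Res2. Mcm6 had the smallest adjusted p, in E0771-Res2 against E0771-Res1 (-0.69 ± 0.18 log2, SE; adjusted p = 0.0541, edgeR), with 24.3 and 22.2 CPM with parental tumors, 41.8, 38.5 and 31.1 with E0771-Res1, and 28.7, 19.3 and 20.7 with E0771-Res2.

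In C1qa-low myeloid cells, whose cycling share lay within the interval of mature dendritic cells, no member was called either. Mean shares were 0.957% ± 0.389 with parental tumors (SD, n = 2), 0.935% ± 0.488 with E0771-Res1 (SD, n = 3) and 1.49% ± 0.173 with E0771-Res2 (SD, n = 3). Resistant minus parental was 0.256 points (two-sided exact permutation test over 28 splits, p = 0.5, adjusted p = 0.686). The 3 E0771-Res2 mice (1.36, 1.69 and 1.42%) lay above all the others (0.373 to 1.25%). E0771-Res2 minus parental was 0.535 points and minus E0771-Res1 0.558 (exact permutation p = 0.1 each, the smallest p these groups allow). Before thinning E0771-Res2 instead had the lowest mean (10.6%, against 15.5% with parental tumors and 14.7% with E0771-Res1). edgeR called 0 of 35 members in each comparison, against 0.0511% (E0771-Res1 against parental), 4.01% (E0771-Res2 against parental) and 3.61% (E0771-Res2 against E0771-Res1) of all genes. Unadjusted p-values under 0.05 were found for 2, 5 and 2 members, against 9.07, 18.6 and 16.8% of all genes, and DESeq2 called 0 in each (0.368, 3.28 and 2.61% of all genes). Aurka had the smallest adjusted p (-1.12 ± 0.35 log2, SE; adjusted p = 0.0919 in E0771-Res2 against parental, edgeR). Its values were 6.67 and 7.14 CPM with parental tumors, 3.07, 3.88 and 5.09 with E0771-Res1, and 2.75, 3.39 and 3.31 with E0771-Res2, so that both parental mice lay above all the others. They rest on 104 UMIs of Aurka over all mice. The other members at an unadjusted p under 0.05 in that comparison went the other way. These were Nusap1 (1.36 log2), Cenpf (0.97), Cdk1 (0.88) and Tpx2 (0.66). The contrast between C1qa-low and C1qa-high shares gave no difference between resistant and parental tumors past the threshold (-1.02 points, exact permutation p = 0.571, adjusted p = 0.686). The S-to-mitotic ratio of all kept cells differed by 0.10 on the log2 scale between resistant and parental tumors (exact permutation p = 0.429, adjusted p = 0.686).

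Of the 43 other regulators, 2 passed the test between lines, both inhibitors of cyclin-dependent kinases. In all kept cells 2 of 43 were called in E0771-Res2 against parental and 1 of 43 against E0771-Res1, where 4.37% and 4.2% of all genes were called. In C1qa-low cells 1 and 2 of 35 were called, where 4.01% and 3.61% of all genes were. The counts are near those shares and are not read as a result about the list. Cdkn1a, which encodes p21, was lower in E0771-Res2. In C1qa-low cells it stood at 815 and 893 CPM with parental tumors, 603, 824 and 719 with E0771-Res1, and 509.6, 519 and 499 with E0771-Res2. The 3 E0771-Res2 mice were the lowest, with differences of -0.74 ± 0.12 log2 against parental and -0.49 ± 0.11 against E0771-Res1 (SE; adjusted p = 0.00368 and 0.0224, edgeR). In all kept cells the difference against parental was -0.64 ± 0.14 (SE; adjusted p = 0.0233, edgeR). Cdkn1c, which encodes p57, was higher in E0771-Res2 at a low level. In all kept cells it stood at 2.62 and 3.04 CPM with parental tumors, 2.78, 2.42 and 2.29 with E0771-Res1, and 6.81, 4.53 and 8.88 with E0771-Res2. The E0771-Res2 mice were the highest, with differences of 1.29 ± 0.32 log2 against parental and 1.40 ± 0.27 against E0771-Res1 (SE; adjusted p = 0.0423 and 0.0132, edgeR). In C1qa-low cells the difference from E0771-Res1 was 2.05 ± 0.43 (SE; adjusted p = 0.0197, edgeR). In lymphoid cells 0 of 40 regulators tested were called, and Cdkn1a differed by -0.20 ± 0.12 log2 from parental (SE; adjusted p = 0.56, edgeR). In C1qa-high cells 0 of 33 were called, and the difference of Cdkn1a was -0.71 ± 0.17 log2 (SE; adjusted p = 0.0542, edgeR). Cdkn1c did not pass the filter on low counts in those 2 classes and was not tested there.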

How the data were processed

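CD45+ tumor cells of 8 mice were analysed, and a further parental mouse was not analysed here. The authors tagged cells with multiplexing oligos, pooled them, made Chromium 3′ v3.1 libraries and counted with Cell Ranger 6.1.2 (mm10, named in the submitters' processing notes), and the deposited values are raw UMI counts per gene and cell. The genes, lists and gates were chosen with earlier results of these data known.

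Used were cells holding 500 to 6000 genes with mitochondrial UMIs under 10%. Sums ran over 23652 genes, without symbols that begin with mt-, Rpl or Rps or that are Gm followed only by digits. Shares used cells thinned at random to 2500 UMIs. Mature dendritic cells held Ccr7 and Fscn1 (sum at least 4), NK cells Ncr1 without Cd3, and tumor or stromal marker cells at least 2 UMIs of Epcam, keratin and collagen genes or Dcn. Shares were compared with exact permutation tests (scipy 1.17.1), with Clopper-Pearson 95% intervals. Counts summed per mouse were tested with edgeR 4.0.16 in R 4.3.3 (TMM, filterByExpr, quasi-likelihood test, Benjamini-Hochberg adjusted p under 0.05), in 1 fit over the 3 lines, or with mouse as a block between classes, after tests on simulated data. Log2 differences are those edgeR fits with its default prior count, whereas CPM had no prior. The quasi-likelihood test gives no SE. The SE printed with a log2 difference is its absolute value divided by the square root of the test's F value. A prior count of 2 was used for the correlations between same-numbered mice.

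Named with values were the 5 mitotic and 4 S-phase genes with the highest mean CPM, Stmn1, up to 8 further members with the smallest adjusted p among those called in a comparison, and the 5 largest differences per direction of called regulators. The values of Aurka in C1qa-low cells, and of the members named beside it there, were added after they were seen. Alternatives were DESeq2 1.42.0, RLE factors, no filter on low counts, all cells, other thresholds, depths and gates, groups of cells left out and each mouse left out. Replicates of 1 line differed by more than sampling noise (chi-square per degree of freedom 2.66 to 12.4).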

Additional observations from a re-analysis of the deposited data

How the results depend on the processing

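Of the values recomputed, 382 were labeled the same, 46 moved, 5 reversed and 4 fell below the threshold. For shares and ratios, the same means an unchanged direction and side of the threshold, by p-values not adjusted over tests. Counts of members called were labeled the same when equal or close in ratio and moved otherwise, whatever their direction. The cause of the changes was not tested. Members called with DESeq2 were 1 in E0771-Res2 against parental and 5 in E0771-Res2 against E0771-Res1 (all kept cells), and 0 in lymphoid cells against parental. Without the filter on low counts, 1 (1.48% of all genes), 2 (5.92%) and 7 (5.61%) members were called in all kept cells. These are E0771-Res1 against parental, E0771-Res2 against parental and E0771-Res2 against E0771-Res1. In lymphoid cells 8 (2.19%) and 11 (2.04%) were called for the last 2 comparisons. C1qa-high cells gave 8 for E0771-Res1 against parental (2.5%) and 13 for E0771-Res2 against E0771-Res1 (4.15%). The latter comparison gave 2 in C1qa-low cells (4.99%). The counts of 1 and 2 are near those shares and are not read as a result about the members. With all deposited cells, 1 was called in E0771-Res2 against E0771-Res1 (all kept cells, 4.02% of all genes). A C1qa gate per 10000 UMIs, added after the data were seen, gave 1 in C1qa-high cells for that comparison (3.35% of all genes). Without lymphoid cells holding myeloid RNA, also added then, 0 were called in E0771-Res2 against E0771-Res1 in all kept cells, and 0 for both E0771-Res2 comparisons in lymphoid cells.

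Same-numbered mice did not deviate together over all genes (correlation -0.0431 to 0.0766). A correlation over all genes cannot show whether they share more than a number, and a shared batch was not tested for. With the number as a replicate block, 4 members were called in lymphoid cells for E0771-Res2 against parental (2.18% of all genes). Against E0771-Res1 there were 8 (1.59% of all genes), and 1 in C1qa-high cells (3.15% of all genes). The last count is near the share of all genes and is not read as a result about the members.

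Leaving out 1 mouse at a time gave 0 to 1 (E0771-Res2 against parental) and 0 to 6 (against E0771-Res1) calls in all kept cells, 0 to 8 and 0 to 15 in lymphoid cells, and, against E0771-Res1, 0 to 4 in C1qa-high and 0 to 1 in C1qa-low cells. C1qa-low against C1qa-high cells gave 23 (without E0771-Res1 replicate 1) to 34. For none of these counts is the share of all genes called without that mouse given here. Reversed values, none past a threshold, were the resistant minus parental cycling share of all kept cells at 3 UMIs (0.541) and without lymphoid cells holding myeloid RNA (0.328, and -0.0605 for the S-to-mitotic log2 ratio), and that of C1qa-low cells without thinning (-2.83) or without E0771 replicate 3 (-0.0184, from -0.0184 to 0.531 over the mice left out). Below the threshold fell the lymphoid log2 ratio against C1qa-high cells without the 5% of cells with most UMIs (-0.46) and without cells holding myeloid RNA (-0.50), and against C1qa-low cells without the latter (-0.32) and, added after seeing the data, without Pcna and Cenpa (-0.20). In C1qa-low cells the share rests on 51 cycling cells.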

Other observations

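Further groups of cells, some outside the 3 classes and some overlapping with or within them, also held the listed genes. Of cells in neither gate, 15 of 54 (27.8%, 95% interval 16.5 to 41.6) were cycling, at a median depth of 3127.5 UMIs. Among all 54, cycling or not, 14 were mitotic-positive. Of cells with tumor or stromal markers, 20 of 77 (26%, 95% interval 16.6 to 37.2) were cycling: 1 of 6 in parental, 4 of 26 in E0771-Res1 and 15 of 45 in E0771-Res2 tumors. Among all 77, cycling or not, 10 were S-positive and 19 mitotic-positive. Myeloid cells with 2 to 9 C1qa UMIs gave 48 of 1715 (2.8%, 95% interval 2.07 to 3.69), between the C1qa-low and C1qa-high shares. C1qa-low cells with dendritic cell markers gave 11 of 397 (2.77%, 95% interval 1.39 to 4.9) and those without 40 of 3683 (1.09%, 95% interval 0.777 to 1.48). Cells left out of the analysis for a mitochondrial share of 10% or more numbered 708, of which 78 reached the depth used and 27 (34.6%) of those were cycling, and all 3 cells with over 6000 genes were cycling. None of these values was tested between tumor lines.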
